A study of Mus musculus with 6 samples.

Results

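A set of 10 genes that encode fibronectin, the thrombospondins and other secreted or cell surface ligands of integrins were followed in D2A1 spheroids, a mouse mammary tumor cell line grown in Matrigel, after exposure to recombinant SLURP1 (rSLURP1). They are Fn1, Vtn, Thbs1, Thbs2, Thbs3, Tnc, Spp1, Sparc, Postn and Vcam1, taken by gene name from the 54146 genes of the deposited table. RNAseq was carried out on 6 libraries, 3 from cells treated with rSLURP1 and 3 from cells treated with recombinant GST (rGST), the control protein. Both proteins were given at 50 nM to D2A1 cells in 3D Matrigel culture in DMEM with 10% FBS, per the labels. The labels do not say whether the 3 libraries of a treatment came from separate cultures, so the p-values measure the spread between these libraries, which may be technical. Levels are given in TPM, a unit that divides by transcript length and gives every library an equal sum.

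Integrins are heterodimeric receptors that attach cells to the extracellular matrix, and ligand binding recruits kinases such as FAK and Src to their cytoplasmic tails. Fibronectin and vitronectin carry an RGD tripeptide that several integrins recognise. Matricellular proteins such as thrombospondins, tenascin-C, osteopontin, SPARC and periostin are secreted into the matrix, where they act more on cell adhesion and signaling than as structural fibers. In breast cancer models, fibronectin, periostin and tenascin-C are known as parts of the matrix in which disseminated tumor cells rest or grow.

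In the TPM as deposited, 8 of the 10 genes were tested, of which 7 were called lower and 1 higher with rSLURP1. Postn, which encodes periostin, fell the most, from 43.4 ± 4.25 TPM to 1.99 ± 0.523 TPM (mean ± SD, n = 3 in each treatment). Thbs3, the gene for thrombospondin-3, rose from 76.0 ± 6.45 TPM to 108.3 ± 10.1 TPM. Of the 10 genes, 8 reached a TPM of 1 in at least 3 libraries and were tested with limma among 12301 genes, with Benjamini-Hochberg adjustment over all of them and a call at an adjusted p-value of 0.05. Tnc was also lower with rSLURP1 but stayed under a TPM of 1 in all 6 libraries, and Vtn was listed at 0 in all 6, so neither was tested. The same fit called 58.5% of all tested genes lower and 8.66% higher with rSLURP1. At a fold change of at least 2, 4 of the 8 tested genes were called lower, against 7.06% of all tested genes. Thbs2 met the 3-library filter through its rGST libraries, where it was high, so its direction was favored by the filter. With a TPM of at least 1 required in all 6 libraries, 7 of the 10 genes were tested, of which 6 were called lower and 1 higher, 3 of them lower at least 2-fold, against 61.3% lower, 8.88% higher and 5.94% lower at least 2-fold among all genes tested that way. The groups did not overlap in any of the 8 tested genes, and they did not overlap in 71.4% of all tested genes. The median log2 fold change was -1.27 over the 8 tested genes and -0.33 over all tested genes, and -0.98 and -0.32 with the filter in all 6 libraries. The 10 genes were chosen with earlier results of these data known, so their contrasts with all tested genes may be favored by that choice. A log2 fold change here is the difference in log2(TPM + 1), rSLURP1 minus rGST, which understates the change of genes with low TPM.

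The direction of the whole profile depended on scaling, while the 8 calls did not. As deposited, 7200 of all tested genes were called lower and 1065 higher, and 3094 were lower and 3198 higher after median-ratio scaling, in which a library is divided by the median ratio of its genes to their geometric mean. That scaling moved the median of all tested genes from -0.33 to -0.0012. The fold changes of the 8 tested integrin ligand genes are therefore also given below relative to the median of all tested genes. Fold changes of other genes are as deposited unless stated otherwise, so they include the shift of that median. An exact permutation test over the libraries gave p = 0.1, two-sided, for each of the 8 genes, the smallest value that 3 libraries against 3 allow. The adjusted p-values below therefore come from limma, which shares the spread over all tested genes. Mitochondrial genes took up 11.7% ± 0.611 of all TPM in the rGST libraries and 13.3% ± 0.917 in the rSLURP1 libraries (SD, n = 3), and 12390 to 12449 against 11906 to 11981 genes reached a TPM of 1. TPM keeps no read depth, so the counting error of each value is unknown.

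Markers of the cells in culture were read beside these genes. Their levels are given in the TPM as deposited, whose direction over the whole profile depended on scaling. Krt18, a keratin of simple epithelium, was at 195.6 ± 4.13 TPM with rGST and 197.7 ± 1.68 TPM with rSLURP1. Its log2 fold change was 0.34 relative to the median of all tested genes, and 81.1% of the tested genes had a lower one. Epcam, Krt5 and Krt14 were listed at 0 in all 6 libraries and Cdh1, the gene for E-cadherin, did not exceed 0.07 TPM, so the defining epithelial markers were absent or nearly so apart from Krt18 and a low level of Krt8. Krt8 was at 1.56 ± 0.140 TPM with rGST and 0.697 ± 0.163 TPM with rSLURP1, and it passed the filter through its rGST libraries alone. Of 7 fibroblast and mesenchymal markers, 4 reached a TPM of 1 in all 6 libraries. All 4 were called lower, against 61.3% of all genes tested with that filter. The summed TPM of the 7 went from 2252 to 2479 with rGST to 726 to 779 with rSLURP1. Vim, which encodes vimentin, fell from 1259 ± 78.4 TPM to 664.5 ± 30.3 TPM, and Dcn, which encodes decorin, fell from 580.7 ± 58.2 TPM to 5.46 ± 0.379 TPM. The log2 fold change was -6.55 for Lum, -1.85 for Pdgfra, -2.40 for Pdgfrb and -2.88 for Col1a1, where Col1a1 passed the filter through its rGST libraries alone and Lum reached a TPM of 1 in 5 libraries. Of 7 immune markers, only Cd68, which encodes a lysosomal glycoprotein, was tested, and it rose from 3.77 ± 0.265 TPM to 9.60 ± 1.61 TPM. The summed TPM of the immune markers, nearly all of it from Cd68, was 3.58 to 4.16 with rGST and 8.12 to 10.6 with rSLURP1. Cd3e, Adgre1 and Itgam were listed at 0 in all 6 libraries and Ptprc did not exceed 0.01 TPM. The markers at or near 0 were named after their values were seen. Summed markers did not exceed 0.31 TPM for endothelial cells and 0.62 TPM for pericytes and smooth muscle. The mesenchymal markers moved in the same direction as 7 of the 8 integrin ligand genes, and their part in these results was not tested. In bulk libraries such as these, fewer cells of a type and less RNA per cell cannot be told apart.

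**Figure D1:**
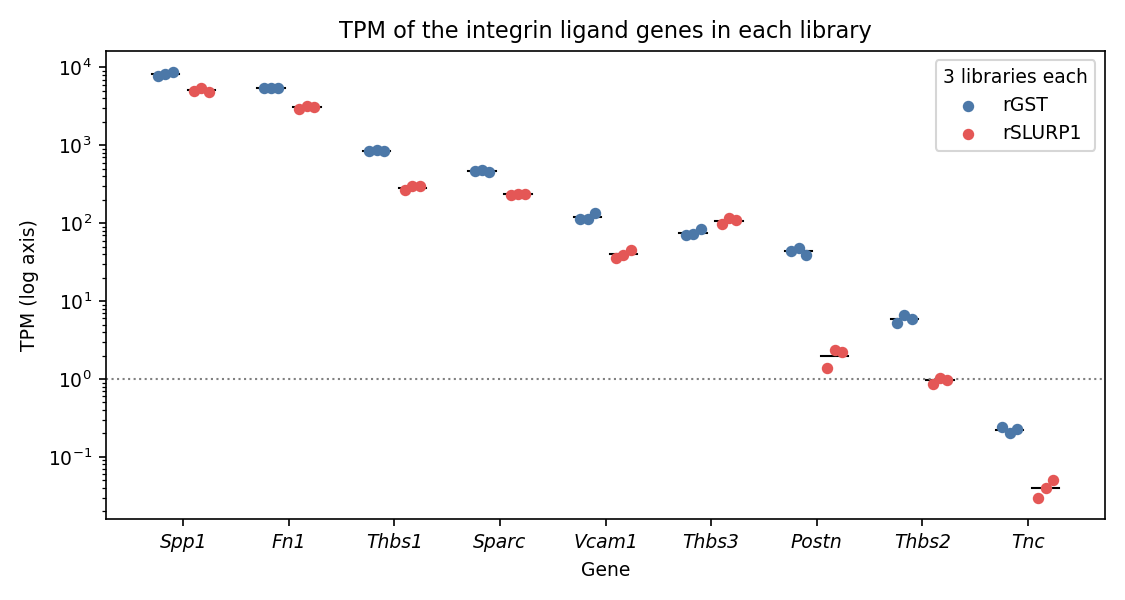
TPM on a log axis (vertical) of 9 integrin ligand genes (horizontal, ordered by level with rGST) in each of 3 rGST libraries (blue) and 3 rSLURP1 libraries (red), with black lines at the group means and a dotted line at a TPM of 1; Vtn, listed at 0, is not drawn. Blue and red points are apart in every gene shown, with red above blue for Thbs3 alone in the TPM as deposited, and Tnc lies under the dotted line throughout.

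The levels spanned a wide range within a library. With rGST the order was Spp1, Fn1, Thbs1, Sparc, Vcam1, Thbs3, Postn, Thbs2 and Tnc, with Vtn last. With rSLURP1 the order was the same except that Thbs3 stood above Vcam1. The ranges of neighbours in these orders did not overlap in either treatment. Spp1 and Fn1 together made up 89.8% ± 0.235 of the summed TPM of the 10 genes with rGST and 92.4% ± 0.332 with rSLURP1 (SD, n = 3). The 10 genes held 1.53% ± 0.0450 of the TPM total with rGST and 0.886% ± 0.0373 with rSLURP1. In the single libraries this share was 1.48%, 1.53% and 1.57% with rGST and 0.858%, 0.928% and 0.871% with rSLURP1.

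Fn1 encodes fibronectin, the main ligand of integrin α5β1, which assembles into fibrils at the cell surface. The gene (ENSMUSG00000026193.15) lies at chr1:71585520-71653200 on the minus strand (GRCm38). Its level was 5399, 5439 and 5409 TPM in the rGST libraries and 2969.8, 3156 and 3127 TPM in the rSLURP1 libraries. The rGST libraries lay within a narrow range and every rSLURP1 library lay far below it. Fn1 fell to 56.9% of its rGST level (log2 fold change -0.81, SE 0.036, limma adjusted p = 2.73e-06), or -0.49 relative to the median of all tested genes. Among all genes of the table, Fn1 ranked 14 by mean TPM with rGST and 54 with rSLURP1. Its log2 fold change was not extreme, since 12.4% of the tested genes had a lower one. The value was -0.46 with median-ratio scaling and -0.28 after a loess correction for length and GC content of the transcripts. With quantile normalization it was -1.06, further from 0 than as deposited, and the call held under each of these. Vtn, which encodes vitronectin, a plasma and matrix protein made mainly in the liver (ENSMUSG00000017344.4, chr11:78499091-78502324), was the only one of the 10 genes listed at 0 in every library.

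The thrombospondins are large secreted calcium-binding glycoproteins. Thrombospondin-1 and -2 form trimers and bind CD47, CD36 and integrins, while thrombospondin-3 forms pentamers and lacks the type 1 repeats of the first pair. Thbs1 and Thbs2 fell and Thbs3 rose.

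Thbs1 (ENSMUSG00000040152.8, chr2:118111876-118127133, plus strand) was at 838.2, 860.2 and 851.8 TPM with rGST and at 263.6, 298.5 and 298.6 TPM with rSLURP1. The highest rSLURP1 library was far under the lowest rGST library. Thbs1 fell to 33.7% of its rGST level (log2 fold change -1.57, SE 0.053, limma adjusted p = 7.75e-07), or -1.24 relative to the median of all tested genes. Only 2.46% of the tested genes had a lower log2 fold change.

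Thbs2 (ENSMUSG00000023885.9, chr17:14665500-14694235, minus strand) was at 5.30, 6.61 and 5.88 TPM with rGST and at 0.87, 1.02 and 0.98 TPM with rSLURP1. Its rSLURP1 libraries lay around the TPM of 1 that the filter asked for, and only 1 of them reached it, so Thbs2 passed the filter through its rGST libraries and its test is not independent of the filter. Its log2 fold change was -1.82 (SE 0.124, limma adjusted p = 1.6e-05), or -1.50 relative to the median of all tested genes. With a pseudocount of 0.1 in place of 1 the log2 fold change was -2.51.

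Thbs3 (ENSMUSG00000028047.11, chr3:89215180-89226837, plus strand) was at 71.3, 73.2 and 83.3 TPM with rGST and at 97.5, 117.4 and 109.8 TPM with rSLURP1. The lowest rSLURP1 library was above the highest rGST library, and the groups did not overlap. Thbs3 rose 1.43-fold (log2 fold change 0.50, SE 0.084, 95% interval 0.31 to 0.70, limma adjusted p = 0.00123), or 0.83 relative to the median of all tested genes, and 95.1% of the tested genes had a lower log2 fold change. The log2 fold change was 0.86 with median-ratio scaling and 0.95 with the length and GC correction. Thbs3 lies within the span of Mtx1, a gene of the opposite strand that encodes metaxin-1 of the mitochondrial outer membrane and that was named here after its values were seen. Mtx1 was at 133.0 ± 12.5 TPM with rGST and 116.1 ± 10.4 TPM with rSLURP1 (log2 fold change -0.19, limma adjusted p = 0.0799). Whether the counting used strand is not given in the sources used here, so reads of Thbs3 and Mtx1 in their shared stretch may not have been told apart.

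Together the 3 thrombospondin genes went from 932.0 ± 14.8 TPM to 396.1 ± 29.8 TPM. Thbs1 made up 91.2% ± 0.606 of this sum with rGST and 72.4% ± 0.747 with rSLURP1. The share of Thbs3 was 7.80%, 7.79% and 8.86% in the rGST libraries and 26.9%, 28.2% and 26.8% in the rSLURP1 libraries. The ratio of Thbs1 to Thbs3 was 11.2 ± 0.896 with rGST and 2.65 ± 0.0987 with rSLURP1, a shift within each library that scaling by a common factor does not change. Thbs1 remained the highest of the 3 in every library.

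**Figure D2:**
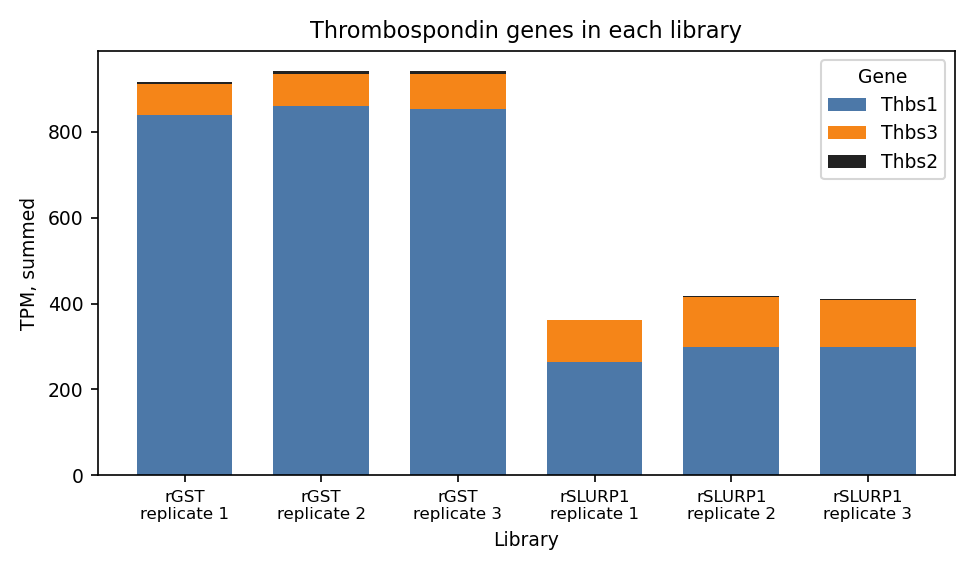
Summed TPM (vertical) of Thbs1 (blue), Thbs3 (orange) and Thbs2 (black) in each of the 6 libraries (horizontal), as stacked bars from 0. The sums fall from between 914.9 and 941.0 TPM with rGST to between 361.9 and 416.9 TPM with rSLURP1, and the orange part is taller in each rSLURP1 bar although the bars are shorter.

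The remaining secreted ligands fell where they were tested. Spp1 encodes osteopontin, a phosphoprotein that binds αv integrins through RGD and also CD44. Spp1 (ENSMUSG00000029304.14, chr5:104435118-104441050, plus strand) was at 7882, 8259 and 8747 TPM with rGST and at 4981, 5428 and 4891 TPM with rSLURP1. The groups stood apart, although the libraries of each treatment varied more than for Fn1. Spp1 fell to 61.5% of its rGST level (log2 fold change -0.70, SE 0.056, limma adjusted p = 3.46e-05), or -0.38 relative to the median of all tested genes. It ranked 7 among all genes of the table by mean TPM with rGST and 16 with rSLURP1. With median-ratio scaling the log2 fold change was -0.35, with quantile normalization it was -0.95, and Spp1 was called lower under both.

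Sparc encodes osteonectin, a collagen-binding protein that counters cell spreading. Sparc (ENSMUSG00000018593.13, chr11:55394500-55423183, minus strand) was at 467.0, 482.5 and 452.7 TPM with rGST and at 231.5, 238.6 and 238.8 TPM with rSLURP1. The libraries of each treatment agreed closely and the groups were far apart. Sparc fell to 50.6% of its rGST level (log2 fold change -0.98, SE 0.037, limma adjusted p = 1.29e-06), or -0.65 relative to the median of all tested genes, and the value was -0.63 with median-ratio scaling.

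Postn encodes periostin, a fasciclin-domain protein that binds αv integrins and other matrix proteins. Postn (ENSMUSG00000027750.16, chr3:54361109-54391037, plus strand) was at 43.8, 47.5 and 39.0 TPM with rGST and at 1.40, 2.39 and 2.19 TPM with rSLURP1. Every rSLURP1 library was close to the filter's TPM of 1, and no rGST library was near it. The mean was 21.8-fold higher with rGST than with rSLURP1 in TPM, and the log2 fold change was -3.90 (SE 0.144, 95% interval -4.24 to -3.57, limma adjusted p = 1.09e-06). Relative to the median of all tested genes it was -3.58. Counted from the lowest, it ranked 24 among the log2 fold changes of the 12301 tested genes. Its log2 fold change was between -4.41 and -3.49 under the alternatives tried.

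Tnc encodes tenascin-C, a hexameric matrix protein bound by integrins such as α9β1. Tnc (ENSMUSG00000028364.15, chr4:63959785-64047015, minus strand) was at 0.24, 0.20 and 0.23 TPM with rGST and at 0.03, 0.04 and 0.05 TPM with rSLURP1. The groups did not overlap at these low levels, whose counting error is unknown. Without a filter on low values, its log2 fold change was -0.23 (limma adjusted p = 0.00206). That fit called 29.5% of its 23334 genes lower, and their median log2 fold change was -0.098.

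Vcam1 differs from the others in that it encodes a membrane-bound ligand of the immunoglobulin superfamily, recognised by integrins α4β1 and α4β7. Vcam1 (ENSMUSG00000027962.14, chr3:116109949-116129688, minus strand) was at 114.9, 112.0 and 135.3 TPM with rGST and at 35.4, 39.4 and 45.2 TPM with rSLURP1. The rGST library of replicate 3 was the highest, and all rSLURP1 libraries lay under all rGST libraries. Vcam1 fell to 33.1% of its rGST level (log2 fold change -1.57, SE 0.103, limma adjusted p = 1.37e-05), or -1.25 relative to the median of all tested genes.

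**Figure D3:**
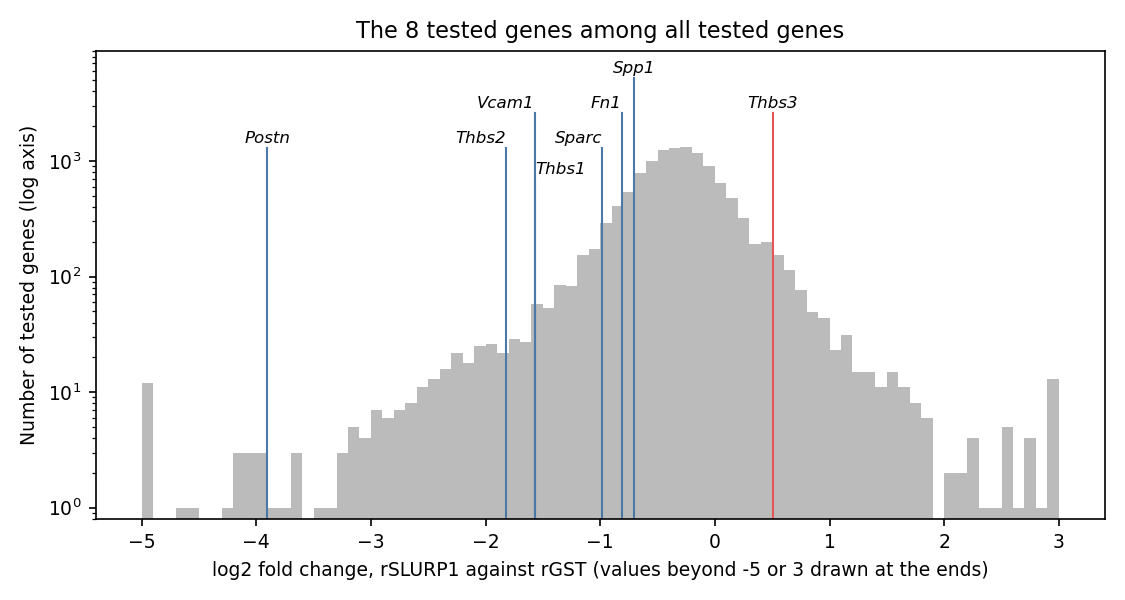
Number of tested genes (vertical, log axis) by log2 fold change, rSLURP1 against rGST (horizontal, bins of 0.1), as grey bars over all 12301 tested genes, with blue lines at the 7 integrin ligand genes that fell and a red line at Thbs3. Spp1 and Fn1 lie on the left flank of the main peak, Thbs1, Vcam1 and Thbs2 in its left tail, Postn near the far left end and Thbs3 on the right flank.

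The genes that fell did not do so equally. Each of the other 7 tested genes was compared with Fn1 within a library as the log2 ratio of TPM + 1, which a common scaling factor changes little except in genes of low TPM. The difference of this log2 ratio, rSLURP1 minus rGST, was -3.09 for Postn, -1.01 for Thbs2, -0.76 for Vcam1, -0.75 for Thbs1, -0.17 for Sparc and 1.32 for Thbs3. With median-ratio scaling, an alternative added after the data were seen, it was -1.12 for Thbs2 and -3.15 for Postn. In these 6 genes the libraries of both treatments were separate, and an exact permutation test gave p = 0.1 for each, the smallest possible, and 0.117 after adjustment over the 7 ratios. Spp1 did not separate from Fn1, with a log2 ratio of 0.61 ± 0.0744 with rGST and 0.72 ± 0.0710 with rSLURP1 (exact permutation p = 0.2, adjusted 0.2), and the sign of this difference turned, to -0.18, with the length and GC correction. None of these 7 comparisons could pass a threshold of 0.05 in this design.

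**Figure D4:**
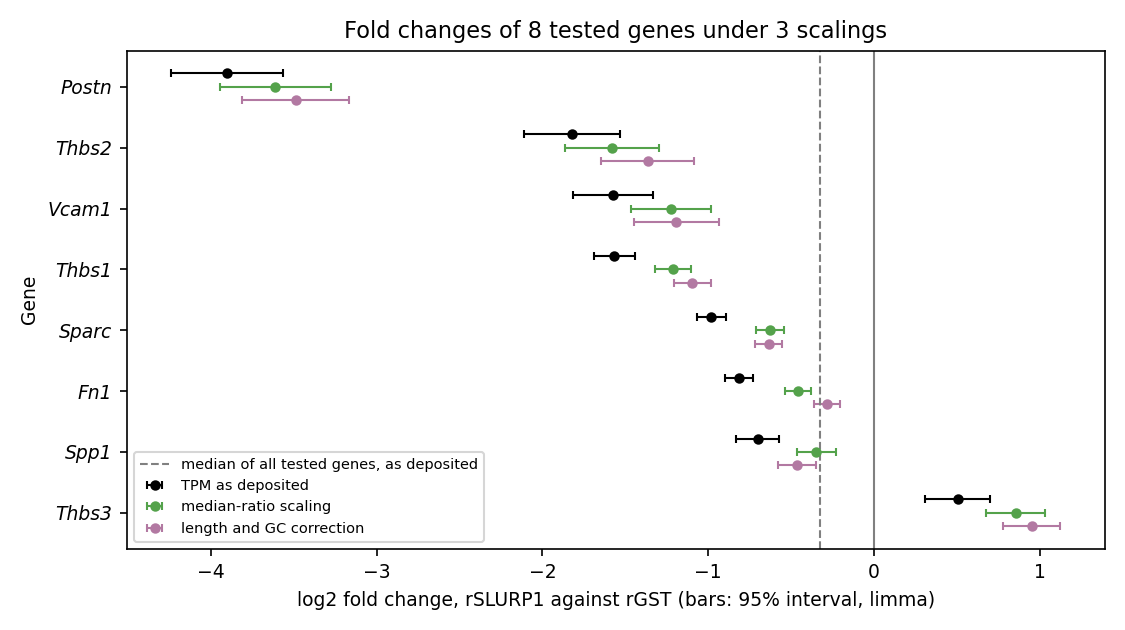
Log2 fold change, rSLURP1 against rGST (horizontal), of the 8 tested integrin ligand genes (vertical) with 95% intervals from limma, for the TPM as deposited (black), median-ratio scaling (green) and the length and GC correction (purple). The solid line marks 0 and the dashed line the median of all tested genes as deposited, -0.33. No interval reaches 0 under the 3 scalings, Fn1 moves most among the genes that fell relative to its size, from -0.81 to -0.28, and Thbs3 stays above 0.

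The genes whose profile over the 6 libraries was most like that of Fn1 were sought outside the 10 genes, among 2984 genes with a mean TPM of at least 50, by Pearson's r of log2(TPM + 1). They were Trp53inp2, a regulator of autophagy, with an r of 0.9999, Sema5a, a transmembrane semaphorin, with an r of 0.9998, and Antxr1, an anthrax toxin receptor that binds collagens, with an r of 0.9998. The 6 libraries fall into a pair of treatment groups, and any gene that differs between them can have an r near 1 or -1, so these values are given with no p-value. Trp53inp2 fell from 168.7 ± 1.86 TPM to 43.1 ± 3.14 TPM, Sema5a from 87.1 ± 1.69 TPM to 32.4 ± 1.69 TPM and Antxr1 from 90.0 ± 1.31 TPM to 44.2 ± 1.49 TPM. Among the integrin ligand genes, r with Fn1 was 0.9999 for Thbs1 and 0.9993 for Postn and lowest for Thbs3, at -0.9046.

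Other matricellular proteins and integrin ligands were read in a list of 40 genes, of which 16 were tested. Of this list, Cdh1 was also among the epithelial markers. Of the 16, 13 were called lower and 1 higher, against 58.5% and 8.66% of all tested genes. Their median log2 fold change was -1.05. With median-ratio scaling 13 were lower and 2 higher, against 3094 and 3198 of the 12301 tested genes. With the filter in all 6 libraries, which leaves out Ibsp and Dmp1, 14 were tested. Of these 14, 11 were lower and 1 higher, against 61.3% and 8.88% of all genes tested that way, with a median of -0.94. Mfge8, which encodes lactadherin, an RGD protein of milk fat globules, was the highest of the list and fell from 440.8 ± 4.03 TPM to 250.9 ± 6.90 TPM (log2 fold change -0.81). Cyr61, a CCN family ligand of αv integrins, fell from 309.2 ± 27.3 TPM to 122.9 ± 14.2 TPM (log2 fold change -1.33). Fbln2, which encodes fibulin-2, a fibronectin-binding glycoprotein, fell from 124.1 ± 5.03 TPM to 49.9 ± 4.12 TPM (log2 fold change -1.30). Emilin1, an elastic fiber protein, and Efemp2, which encodes fibulin-4, had log2 fold changes of -0.86 and -0.49 and were called lower. The gene that rose was Npnt, which encodes nephronectin, the ligand of integrin α8β1, named after its values were seen, with 3.38 ± 0.273 TPM against 5.25 ± 0.227 TPM (log2 fold change 0.52, limma adjusted p = 0.00291). Ecm1 and Igfbp7 were tested and not called. Of the thrombospondin family, Thbs4 was listed at 0 in all 6 libraries, and Comp, also called thrombospondin-5, stayed under a TPM of 1 in each. These 4 genes were named after their values were seen. Ibsp and Dmp1, which encode bone sialoprotein and dentin matrix protein of the same phosphoprotein family as osteopontin, lie 124.0 and 221.0 kb from Spp1 on chromosome 5. Ibsp was at 1.15, 1.53 and 1.71 TPM with rGST and at 0.07, 0.09 and 0.35 TPM with rSLURP1, and Dmp1 was at 2.52, 3.07 and 3.63 TPM and at 0.39, 0.40 and 0.69 TPM. Both passed the filter through their rGST libraries alone, and both were named here after their values were seen.

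Receptors that bind at least one of the 10 ligands were read in a list of 25 genes, of which 17 were tested. Of these, 9 were called lower and 4 higher as deposited, beside 58.5% lower and 8.66% higher among all tested genes. With median-ratio scaling the receptor counts turned to 5 lower and 9 higher. The counts of all 12301 tested genes turned as well, to 3094 lower and 3198 higher. The list therefore has no direction that holds under every scaling. Itgb1, which encodes the β1 chain shared by many matrix receptors, fell from 522.0 ± 13.1 TPM to 374.2 ± 12.5 TPM (log2 fold change -0.48, and -0.13 with median-ratio scaling). Itgb5, which encodes the β5 chain that pairs with αv to bind vitronectin, fell from 421.6 ± 12.2 TPM to 133.6 ± 9.33 TPM (log2 fold change -1.65, and -1.30 with median-ratio scaling). Lrp1, an endocytic receptor that takes up thrombospondin-1, fell from 320.3 ± 4.02 TPM to 147.1 ± 5.23 TPM (log2 fold change -1.12, and -0.76 with median-ratio scaling). Anxa2, a membrane-binding annexin, was at 396.7 ± 15.4 TPM and 320.5 ± 10.3 TPM, called lower as deposited (log2 fold change -0.31) and not called with median-ratio scaling (0.05). Calr, which encodes calreticulin, a partner of Lrp1 in thrombospondin-1 binding, was at 912.9 ± 26.0 TPM and 928.0 ± 21.2 TPM, not called as deposited (log2 fold change 0.02, limma adjusted p = 0.583) and called higher with median-ratio scaling (0.38).

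The 4 receptor genes called higher, named after their values were seen, were Itgb7, Plaur, Cd44 and Cd47. Cd47, the receptor of the C-terminal domain of thrombospondins, rose from 115.9 ± 6.63 TPM to 147.7 ± 6.36 TPM (log2 fold change 0.35, limma adjusted p = 0.000966). Cd44, a hyaluronan receptor that also binds osteopontin, rose from 40.9 ± 1.84 TPM to 53.3 ± 3.39 TPM (log2 fold change 0.37, limma adjusted p = 0.00137). Plaur, the urokinase receptor, which binds vitronectin, rose from 17.1 ± 2.22 TPM to 38.6 ± 4.91 TPM (log2 fold change 1.13). Itgb7, the β7 chain that pairs with α4, rose from 1.26 ± 0.474 TPM to 6.92 ± 0.929 TPM (log2 fold change 1.82). It was at 1.16, 0.85 and 1.78 TPM with rGST, so it met the filter through its rSLURP1 libraries, where it was high. With the filter in all 6 libraries Itgb7 was not tested. Of the 16 receptors tested that way, 9 were lower and 3 higher, against 61.3% and 8.88% of all genes. Under median-ratio and quantile scaling and the length and GC correction, which keep the 3-library filter, all 4 receptor genes were also called higher. Itga4, which encodes the α4 chain of integrins that bind Vcam1, was listed at 0 in all 6 libraries, also named after its values were seen.

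**Figure D5:**
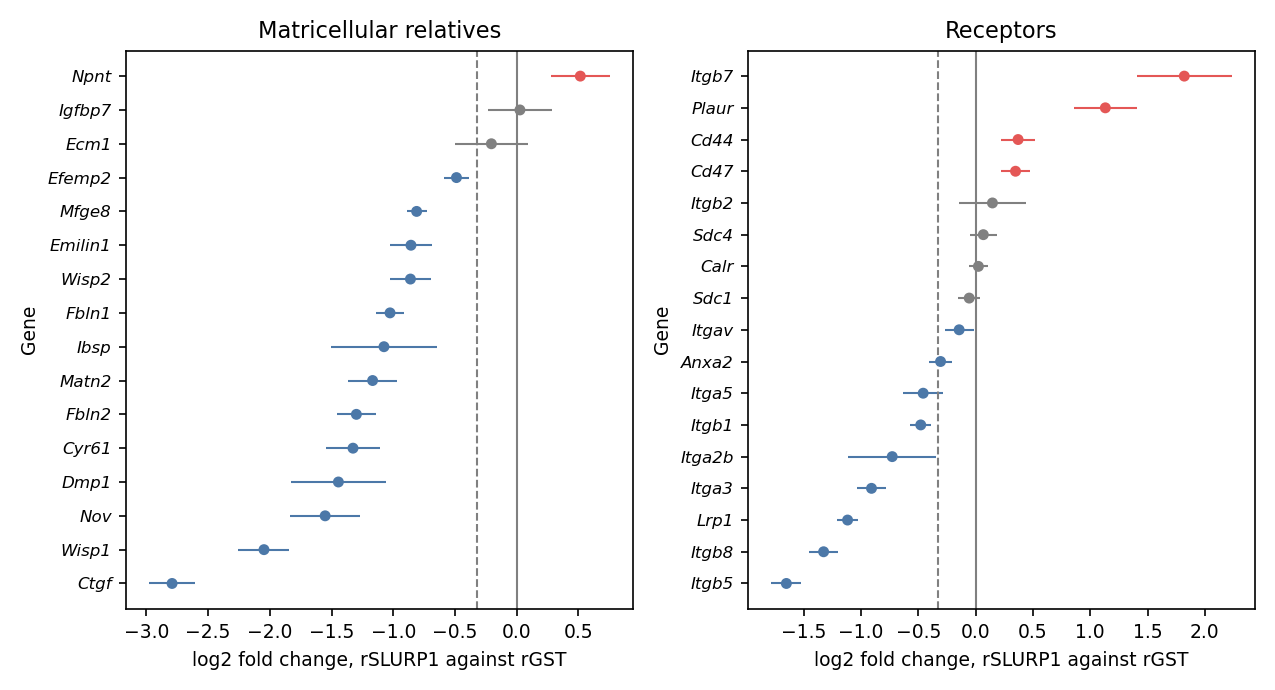
Log2 fold change, rSLURP1 against rGST (horizontal), with 95% intervals from limma for 16 tested matricellular relatives (left) and 17 tested receptors (right), blue where called lower, red where called higher and grey where not called in the TPM as deposited; solid lines mark 0 and dashed lines the median of all tested genes, -0.33. Most relatives lie left of the dashed line, while receptors lie on both sides of 0. The receptor counts turn from 9 lower and 4 higher to 5 lower and 9 higher with median-ratio scaling. The counts of all tested genes turn from 7200 lower and 1065 higher to 3094 and 3198.

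The 250 bases before the transcription start of RefSeq (GRCm38.p6) were found for 7 of the 10 genes, Vtn, Thbs2, Thbs3, Tnc, Spp1, Sparc and Postn. The start in RefSeq lay within 29 bases of the gene's start in GENCODE for 6 of them and 3103 bases inside the gene's span for Sparc, whose window held none of the motifs searched. Shown are 3 of them, for the gene that rose (Thbs3), the highest gene (Spp1) and the gene with the largest decrease (Postn), each 5′ to 3′ on the gene's strand, which is the plus strand for all 3. Capitals mark a GC box (GGGCGG, here read on the other strand) in Thbs3 and a TATA box (TATAAA) in Spp1 and Postn. The windows are chr3:89214930-89215179 for Thbs3, chr5:104434861-104435110 for Spp1 and chr3:54360857-54361106 for Postn.
Thbs3: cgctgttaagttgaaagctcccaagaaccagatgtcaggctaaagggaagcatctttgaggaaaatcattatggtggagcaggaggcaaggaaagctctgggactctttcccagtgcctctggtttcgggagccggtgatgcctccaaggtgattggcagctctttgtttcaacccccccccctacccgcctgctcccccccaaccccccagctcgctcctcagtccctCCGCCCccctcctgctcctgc
Spp1: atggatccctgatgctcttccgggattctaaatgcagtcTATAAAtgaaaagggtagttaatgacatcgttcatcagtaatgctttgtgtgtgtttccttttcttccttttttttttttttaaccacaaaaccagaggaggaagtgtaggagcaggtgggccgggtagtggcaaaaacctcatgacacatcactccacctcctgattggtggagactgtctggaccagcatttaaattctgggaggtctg
Postn: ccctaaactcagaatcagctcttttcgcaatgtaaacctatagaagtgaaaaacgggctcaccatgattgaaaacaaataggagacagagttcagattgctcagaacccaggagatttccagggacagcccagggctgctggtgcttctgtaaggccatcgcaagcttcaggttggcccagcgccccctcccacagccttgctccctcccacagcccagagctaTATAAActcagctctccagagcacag
The first base of the motif lies 21 bases before the start in Thbs3, 211 in Spp1 and 26 in Postn. Both strands of the 7 windows were searched. The KLF4 motif CCCCACCC, the AP-1 motif TGANTCA and the cAMP response element TGACGTCA were in none of the 7, and they were in 9.05%, 6.75% and 1.55% of 32851 RefSeq promoters of the same length. The TEAD motif GGAATG was in 1 of the 7, Vtn, and in 12.6% of all promoters, and the GC box was in 2 of the 7, Thbs3 and Tnc, and in 32.7%. The TATA box, added to the search after the sequences were seen, was in 5 of the 7, Vtn, Thbs2, Tnc, Spp1 and Postn, and in 12.4% of all promoters. These counts take a match anywhere in the window, on either strand. The TATA box lay 26 bases before the start in Postn, 126 in Thbs2 (other strand) and 126 in Tnc. It lay 135 and 137 (other strand) bases before the start in Vtn and 211 in Spp1. These are matches of letters and not sites shown to be used.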

How the data were processed

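The TPM that the authors deposited, in 1 column for each library, were made with Cutadapt for trimming, STAR for alignment to mm10 and RSEM for quantification. The labels name a TruSeq mRNA kit, whereas the paper's methods describe another preparation. TPM holds no read depth, which is therefore unknown, and precision rests on 3 libraries per treatment. Libraries were grouped by the labels.

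From the deposited TPM, log2(TPM + 1) was computed for 12301 genes, those at 1 TPM or more in 3 or more libraries, and rSLURP1 was tested against rGST with limma 3.58.1 in R 4.3.3 (lmFit, eBayes with trend, no block, Benjamini-Hochberg adjustment over all tested genes, two-sided). The test was checked on simulated data for this comparison, in which, among 12301 genes, 88 of 100 genes changed by 1 on the log2 scale, 97 of 100 changed by 2 and 10 unchanged genes were called. In the simulation 200 genes were changed, up and down in equal number, with no shift of the whole profile. It differs in this from the data and does not check calls that depend on scaling. Coordinates, transcript lengths and GC content came from GENCODE M21 (GRCm38), which held 54079 of 54146 identifiers, and promoters from RefSeq. Protein sequences were not analysed here.

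The 10 genes and the gene lists were chosen with earlier results of these data known. Named were the 10 genes, the 5 highest tested genes by mean TPM of the relatives and of the receptors, the 3 genes most correlated with Fn1 and every cell type marker with a mean TPM of at least 1. Other genes named were chosen after their values were seen. Alternatives were median-ratio scaling, quantile normalization, TPM rescaled without mitochondrial genes, a pseudocount of 0.1, no filter on low TPM, a filter applied to all 6 libraries, eBayes with no trend, a replicate block, a length and GC correction (loess, span 0.3) with and without the block, each library left out in turn and a fold change of at least 2.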

Additional observations from a re-analysis of the deposited data

How the results depend on the processing

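All 127 log2 fold changes of the 8 tested integrin ligand genes under the alternatives that gave one kept their direction and their call. Many of these are not separate checks. A change of filter, eBayes with no trend and the replicate block leave the log2 fold change as it was and alter only its p-value. The share of all tested genes that kept their calls is not given here, so this stability may not be particular to these genes. Thbs2 was not tested with the filter in all 6 libraries, where 6 integrin ligand genes were lower and 1 higher. Tnc was tested only without a filter, where it was also called lower, as were 29.5% of the 23334 genes in that fit. With a fold change of at least 2 required, 4 of the integrin ligand genes were called lower and 0 higher, and 869 of all tested genes were lower and 142 higher. Scaling also moved the counts over all tested genes. They were 3094 lower and 3198 higher under median-ratio scaling, 2905 and 3111 under quantile normalization, 2690 and 3320 after correction for length and GC, and 2468 and 3095 after that correction together with the replicate block. Under median-ratio scaling and under quantile normalization, 2 matricellular relatives were higher. Of the receptors, 5 were lower and 9 higher under median-ratio scaling and after correction for length and GC, whether or not the replicate block was included, and 7 were higher under quantile normalization. The log2 ratio to Fn1 became -0.81 for Thbs1, -0.35 for Sparc, -0.91 for Vcam1 and, with its sign turned, -0.18 for Spp1 after correction for length and GC, and -1.70 for Thbs2 and -3.59 for Postn with a pseudocount of 0.1. Under median-ratio scaling, tried for these ratios after the data were seen, it was -1.12 for Thbs2 and moved by less than 1 SD for the other genes. The cause of these shifts was not tested. Leaving out each library in turn gave 6605 to 6999 lower and 906 to 1020 higher genes, and 7 and 1 integrin ligand genes each time.

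Replicate numbers are shared by both treatments, but same-numbered libraries did not deviate together (r of -0.061 to -0.034, against 0.0075 to 0.048 for other pairs). Each gene was first centered within its treatment, which ties the r of other pairs to that of same-numbered pairs. The other pairs are therefore not an independent comparison. With the replicate block, 6954 of all tested genes were lower and 1008 higher, and the 7 lower and 1 higher integrin ligand genes were called as without it. Counting error cannot be had from TPM, and Thbs2, Postn and Tnc in the rSLURP1 libraries, which lie near or under a TPM of 1, are the values it would limit most.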
